A study of Mus musculus with 9 samples.

Results

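The 7 genes described here act on a single phosphate group, the one on a serine of eIF2alpha that sets how much new protein a cell starts to make. They were chosen by name from the 20189 genes of the count table, and all 7 were found: the kinase genes Eif2ak1 (encoding HRI), Eif2ak2 (PKR), Eif2ak3 (PERK) and Eif2ak4 (GCN2), the phosphatase subunit genes Ppp1r15a (GADD34) and Ppp1r15b (CReP), and Impact, whose product inhibits GCN2. They were followed in 9 mRNA libraries of E14 cells, a wild-type mouse embryonic stem (ES) cell line, in 3 groups of 3. Unstarved cells had spent 3 h in medium with all amino acids, Cys-starved cells 3 h without cysteine and Thr-starved cells 3 h without threonine. All 9 came from the same line with no gene deleted, and all had been grown with serum and leukemia inhibitory factor. The medium of these sequencing samples is described in the labels for Arg and Leu starvation. The study's methods give a medium without Cys for ferroptosis experiments, and do not say whether it was used for the Cys-starved samples here. The 3 samples of a group are called replicates in the labels, which do not say whether they were separate cultures, so p-values measure the spread between these samples, which may be technical.

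Each of the 4 kinases senses a different stress and phosphorylates eIF2alpha, after which most translation slows while a few mRNAs, Atf4 among them, are translated more. GCN2 responds to uncharged tRNA and stalled ribosomes, PERK to unfolded protein in the endoplasmic reticulum, HRI to lack of heme and to mitochondrial stress, and PKR to double-stranded RNA. GADD34 and CReP each bring protein phosphatase 1 (PP1) to eIF2alpha and so restore translation, GADD34 as an inducible subunit and CReP as a constitutive one. This signaling branch is called the integrated stress response (ISR), and both starvations ask the same question of these genes: whether the enzymes that write and erase the mark themselves changed at the mRNA level. The data say nothing of their protein levels or activity.

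After 3 h without Thr, the mRNAs of both phosphatase subunits were higher (Ppp1r15a 1.96-fold and Ppp1r15b 1.74-fold), as was Eif2ak2 (1.61-fold), while Eif2ak1 was at 0.559 and Eif2ak4 at 0.797 of its unstarved level. After 3 h without Cys, Ppp1r15a was 1.83-fold higher, Ppp1r15b rose by 12.4%, and Eif2ak1 was again lower (0.799 of unstarved). Eif2ak3 and Impact moved by 10.2% or less in either starvation. These fold changes and percentages are those of the edgeR fit. Levels are given as CPM, that is, each gene's share of its library's counts after scaling by TMM. The tests were edgeR's quasi-likelihood F tests over all genes with Benjamini-Hochberg adjustment at 0.05. In bulk samples, fewer cells of a type and less RNA per cell cannot be told apart.

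Both starvations moved very many genes, so counts of called genes are given beside those of the whole table. With Thr starvation, 7 of the 7 genes were called, 5 higher and 2 lower, where 63.0% of the 20143 genes tested were called (31.1% higher and 31.9% lower). The libraries of both groups did not overlap for 7 of the 7, against 66.5% of all genes. With Cys starvation 4 of the 7 were called, 3 higher and 1 lower, against 36.3% of all genes (17.5% higher and 18.8% lower), and 5 did not overlap, against 46.4%. Between Thr and Cys starvation 6 were called, 4 higher and 2 lower with Thr, against 62.0% (30.4% higher and 31.6% lower), and 7 did not overlap, against 65.8%. All 7 genes averaged at least 5 CPM, and for the 11410 genes that did so the shares called were 80.6%, 55.0% and 80.6%. The median absolute log2 fold change of the 7 genes was 0.69 for Thr, 0.13 for Cys and 0.32 between them, beside 0.31, 0.13 and 0.29 for that wider set. The size factors in the deposited table in place of TMM left the calls of the 7 genes as they were but turned the split of Cys calls from 48.2% higher to 36.8% higher.

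Total counts ran from 48763102 to 74962733 per library, and the 7 genes had 1044 to 22228 counts each in a library, so counting error was small. All 8 markers of pluripotent cells were present, with summed levels of 3910 to 3930 CPM in unstarved, 3730 to 3750 in Cys-starved and 4140 to 4220 in Thr-starved libraries. The study's methods describe growth of the line on gelatin-coated dishes and name no feeder cells. Fibroblast markers, which feeder cells would carry, summed to 15.1 to 15.4, 13.7 to 16.8 and 10.1 to 11.4 CPM. The 9 markers of endoderm, mesoderm and neural cells summed to 24.1 to 24.7, 30.6 to 31.1 and 29.8 to 32.9 CPM. No defining marker was at 0 in every library, 5 of 6 fibroblast markers were in the table, and the part of these cells in the results below was not tested.

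Eif2ak4 encodes GCN2, the kinase best known as a sensor of amino acid lack. Its unstarved levels were 26.8, 28.7 and 28.3 CPM, the Cys-starved ones 28.3, 26.6 and 28.3 CPM, and the Thr-starved ones 21.3, 22.2 and 23.1 CPM. All 3 Thr-starved libraries lay below the other 6, and the other groups overlapped. Eif2ak4 was lower with Thr starvation by a log2 fold change of -0.33 (SE 0.0472, edgeR adjusted p = 2.3e-06). Without Cys the difference was -0.01, with a 95% interval of -0.11 to 0.08 (edgeR adjusted p = 0.873). Thr-starved cells were also lower than Cys-starved cells, by -0.31 on the log2 scale (SE 0.047, edgeR adjusted p = 3.8e-06). When the fit also removed trends with GC content and transcript length in each library (the GC and length offsets), the Thr value became -0.27. The difference between the starvations became -0.22, and both stayed called. Of all genes called with Thr starvation, 69.9% had a larger change than Eif2ak4.

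Eif2ak1 encodes HRI, and among the kinases it had the highest level in unstarved cells and the widest fall. Its 3 unstarved libraries held 64.6, 66.8 and 69.4 CPM, the Cys-starved ones 53.3, 52.4 and 54.8 CPM, and the Thr-starved ones 37.3, 37.1 and 37.7 CPM. The 3 groups were fully separated, in the order unstarved, Cys-starved, Thr-starved. The log2 fold change was -0.84 for Thr (SE 0.035, edgeR adjusted p = 1.7e-15) and -0.32 for Cys (SE 0.0337, edgeR adjusted p = 8.6e-08). Thr-starved cells lay below Cys-starved cells by -0.52 (SE 0.0352, edgeR adjusted p = 1.4e-11). Eif2ak1 was the only kinase gene called in all 3 comparisons.

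The last exons of Eif2ak1 overlap those of Aimp2, a scaffold gene of the multi-tRNA-synthetase complex, on the opposite strand over 487 bases, which is 8.59% of the exon length of Eif2ak1. The kit keeps strand, but the strand setting of the counting was not given in the sources used here. Aimp2 also fell, from 41.0 CPM in unstarved to 33.9 in Cys-starved and 27.3 in Thr-starved cells. Its log2 fold changes were -0.27 for Cys and -0.58 for Thr, both smaller than those of Eif2ak1, and the part of shared reads in either gene's values was not tested.

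Eif2ak2 encodes PKR, itself a gene that interferon induces. Levels were 19.0, 21 and 21.2 CPM in unstarved, 21.2, 21.7 and 22.2 in Cys-starved, and 32.8, 33.3 and 32.5 in Thr-starved libraries. The Thr-starved libraries stood well above the other 6, while the unstarved and Cys-starved libraries met near 21.2 CPM. The log2 fold change was 0.69 for Thr (SE 0.0468, edgeR adjusted p = 1.0e-11) and 0.60 for Thr over Cys (SE 0.0462, edgeR adjusted p = 1.1e-10). For Cys it was 0.09, with a 95% interval of -0.01 to 0.19, and was not called (edgeR adjusted p = 0.157). With the GC and length offsets the Thr value was 0.55 and that of Thr over Cys 0.50, both still called.

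The RefSeq promoter table (GRCm38.p6) held a window from 250 bases before to 50 after the start for 5 of the 7 genes, without Ppp1r15b and Impact. Eif2ak2 is shown because its window held an interferon element, searched on both strands as GAAA, any 2 bases, GAAA and found in 3.44% of the 32851 windows of all genes. The match lay in the first exon, from base 19 of the transcript, and is printed in capitals with 9 bases on either side, at chr17:78882536-78882563 on the minus strand.
Eif2ak2: gtccgccggGAAAACGAAAcagaagaga

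Other interferon-stimulated genes went both ways with Thr starvation. Of 20 such genes 12 were in the table, and 5 of them were called higher and 7 lower, with a median log2 fold change of -0.50. Of all genes tested, 31.1% were called higher and 31.9% lower with Thr. Bst2, a membrane protein that tethers virus particles, went from 30.1 ± 0.399 to 15.6 ± 1.09 CPM (SD, n = 3 each). The widest changes of the list, in Usp18 (2.40) and Rsad2 (-2.20), were in genes under 0.4 CPM in every group mean. With Cys starvation 2 of the 12 were called higher and 3 lower, with a median of -0.13, against 17.5% and 18.8% of all genes tested. Over the alternatives 3 to 5 were called higher and 6 to 7 lower with Thr, and 1 to 2 higher and 2 to 4 lower with Cys.

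Eif2ak3 encodes PERK, the kinase in the membrane of the endoplasmic reticulum. Its levels were 43.9, 43.2 and 42.2 CPM in unstarved, 43.7, 40.9 and 44.2 in Cys-starved, and 46.3, 47.9 and 48.1 in Thr-starved libraries. The Thr-starved libraries were above all others, by a small margin. The log2 fold change was 0.14 for Thr (SE 0.0374, edgeR adjusted p = 0.00238) and 0.15 for Thr over Cys (SE 0.0372, edgeR adjusted p = 0.00167). With the GC and length offsets these became 0.24 and 0.29. For Cys the difference was -0.01, with a 95% interval of -0.08 to 0.07 (edgeR adjusted p = 0.931). Of the genes called with Thr starvation, 93.1% had a larger change than Eif2ak3.

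Impact encodes a protein that competes with GCN2 for its activator GCN1. The gene lies on chromosome 18 (GRCm38, 12955852 to 12992950, plus strand). Its level was 99.2, 99.7 and 99.9 CPM in unstarved, 112, 107 and 108 in Cys-starved, and 106, 103 and 107 in Thr-starved libraries. Every starved library was above every unstarved one, though the difference was under 10% of the level. The log2 fold change was 0.13 for Cys (SE 0.0271, edgeR adjusted p = 5.2e-04) and 0.08 for Thr (SE 0.0273, edgeR adjusted p = 0.012). The Thr value rests on the processing. It turned to -0.11 with the GC and length offsets (edgeR adjusted p = 0.00102), and was 0.07 without the third Thr-starved library (edgeR adjusted p = 0.0548). The Cys value was 0.08 with the same offsets and stayed called. Between the starvations Impact differed by -0.05 (95% interval -0.11 to 0.01), which was not called (edgeR adjusted p = 0.127), though with the offsets it was called, at -0.19.

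**Figure D1:**
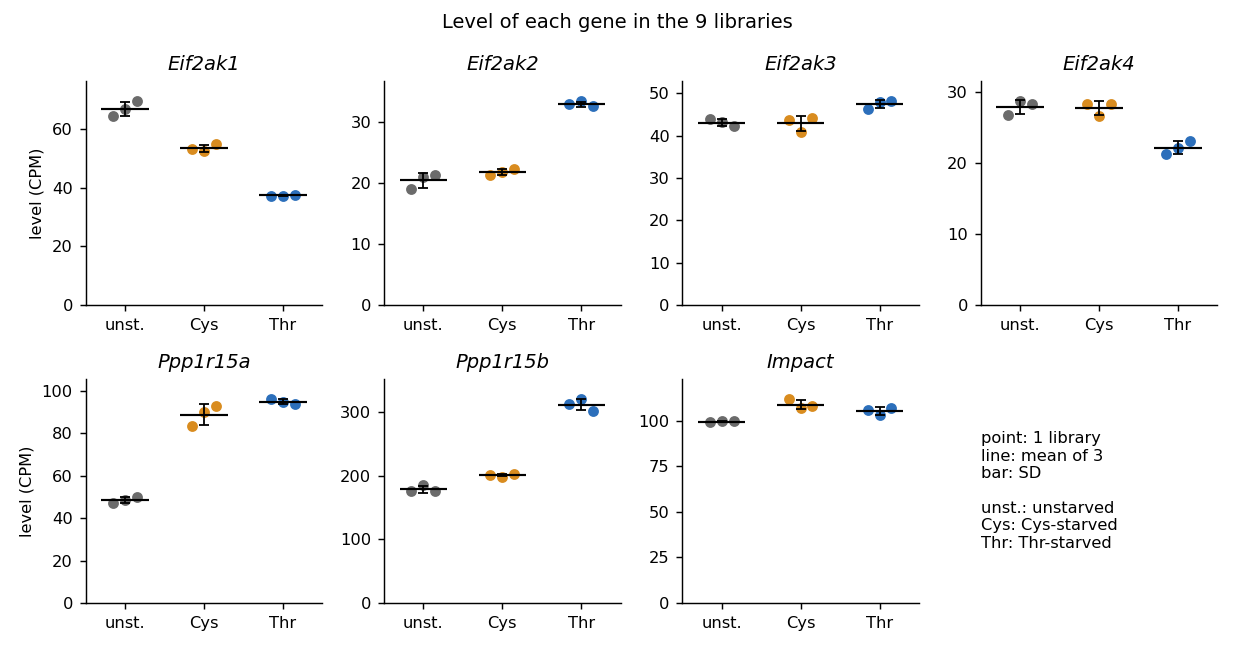
Level in CPM (y axis, from 0, a separate scale for each gene) of the 7 genes in unstarved, Cys-starved and Thr-starved cells (x axis). Each point is 1 library, lines are means and bars SD of 3 libraries. Ppp1r15a is high in both starvations, Ppp1r15b and Eif2ak2 mainly in the 3 Thr-starved libraries, and Eif2ak1 falls in steps from 67.0 to 53.5 to 37.4 CPM.

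Ppp1r15a encodes GADD34, the inducible subunit that brings PP1 to eIF2alpha. It had 47.0, 48.7 and 49.9 CPM in unstarved, 83.3, 90.2 and 92.8 in Cys-starved, and 96.2, 95 and 93.8 in Thr-starved libraries. Both starved groups were far above the unstarved libraries and lay close to each other without overlap. The log2 fold change was 0.97 for Thr (SE 0.0366, edgeR adjusted p = 3.1e-16) and 0.87 for Cys (SE 0.0364, edgeR adjusted p = 2.8e-14). Among called genes, 22.1% had a larger change with Thr but 5.18% with Cys. Thr-starved cells exceeded Cys-starved cells by 0.10 (SE 0.035, edgeR adjusted p = 0.0184). That difference was 0.06 and no longer called without the first Cys-starved library (edgeR adjusted p = 0.177), and 0.34 with the GC and length offsets.

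The upstream sequence of Ppp1r15a is shown because it rose in both starvations and held the cyclic AMP response element TGACGTCA, to which ATF and CREB factors are known to bind. That motif, which reads the same on both strands, began at base -12 from the start and was found in 1.79% of all windows. The capitals mark it and, from base -220, a match to the interferon element. The ATF-C/EBP element TGATGNAAN, found in 3.95% of windows, and the endoplasmic reticulum stress element (CCAAT, any 9 bases, CCACG), found in 0.119%, had no match in the window of any of the 5 genes. A match is a description of letters and not a bound site. The 250 bases before the start are chr7:45526269-45526518, minus strand.
Ppp1r15a: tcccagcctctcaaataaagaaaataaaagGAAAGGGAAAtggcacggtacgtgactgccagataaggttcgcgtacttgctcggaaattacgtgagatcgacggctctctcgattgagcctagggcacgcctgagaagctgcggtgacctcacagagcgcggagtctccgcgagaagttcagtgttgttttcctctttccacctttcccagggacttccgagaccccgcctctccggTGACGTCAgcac

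Ppp1r15b encodes CReP, the subunit regarded as constitutive. Its levels were 176, 185 and 176 CPM in unstarved, 202, 199 and 203 in Cys-starved, and 313, 321 and 303 in Thr-starved libraries. The 3 groups did not overlap, and the step from Cys-starved to Thr-starved was much larger than that from unstarved to Cys-starved. The log2 fold change was 0.80 for Thr (SE 0.0262, edgeR adjusted p = 2.7e-17) and 0.17 for Cys (SE 0.0262, edgeR adjusted p = 2.1e-05). Thr-starved cells were higher than Cys-starved cells by 0.63 (SE 0.0261, edgeR adjusted p = 1.9e-15). Gm26616, a transcript on the opposite strand that shares 640 exon bases with Ppp1r15b, was at 0.504 CPM in unstarved, 0.77 in Cys-starved and 1.51 in Thr-starved cells, far below Ppp1r15b.

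**Figure D2:**
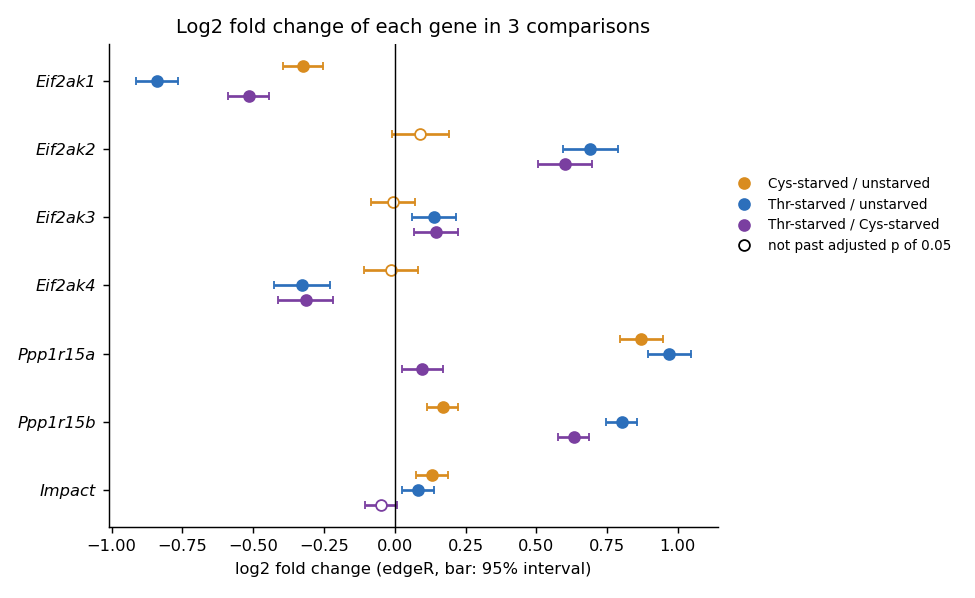
Log2 fold change (x axis) of each of the 7 genes (y axis) in Cys-starved over unstarved, Thr-starved over unstarved and Thr-starved over Cys-starved cells, with 95% intervals from edgeR; open points were not called. The Ppp1r15a points of both starvations lie near each other at 0.87 and 0.97, while those of Ppp1r15b are apart at 0.17 and 0.80.

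To compare the genes with each other, levels were divided by exon length and are given as CPM per kb. In unstarved cells the order of these levels was Ppp1r15b (32.0 ± 0.955), Impact (19.4 ± 0.0746), Ppp1r15a (16.5 ± 0.498), Eif2ak1 (11.8 ± 0.418), Eif2ak3 (7.15 ± 0.143), Eif2ak2 (3.99 ± 0.242) and Eif2ak4 (3.75 ± 0.14; SD, n = 3 each). Eif2ak2 and Eif2ak4 overlapped, and by the length of the longest transcript in place of all exons their order turned (4.73 and 5.27). The other neighbours in that order did not overlap. In both starvations Ppp1r15a passed Impact to take second place, at 30.2 ± 1.67 with Cys and 32.4 ± 0.409 with Thr. By longest transcript the means of Ppp1r15a and Impact were closer, at 31.6 and 29.0 with Cys and 33.8 and 28.0 with Thr. The margin with Cys thus rests on the length used. In Thr-starved cells Eif2ak1 (6.59 ± 0.0488) lay below Eif2ak3 (7.87 ± 0.162) and just above Eif2ak2 (6.43 ± 0.0768). By longest transcript the order was the same, with Eif2ak1 at 8.64 further above Eif2ak2 at 7.63. Eif2ak4 was last in each group by exon length, but by longest transcript it lay above Eif2ak2 in unstarved and Cys-starved cells (5.23 and 5.03 in the latter).

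The sum of the 4 kinase genes was a little lower in every starved than in any unstarved library, and its makeup shifted. It was 26.7 ± 0.63 CPM per kb in unstarved, 24.5 ± 0.649 in Cys-starved and 23.9 ± 0.292 in Thr-starved cells (SD, n = 3 each). Eif2ak1 made up 43.8% to 45.0% of that sum in unstarved, 38.2% to 38.8% in Cys-starved and 27.3% to 28.0% in Thr-starved libraries. Eif2ak2 went the other way, from 14.3% to 15.3% through 16.8% to 17.8% to 26.4% to 27.3%. With Thr starvation the 3 largest kinase shares by exon length thus drew close together, with Eif2ak3 at 32.6% to 33.1%. By longest transcript their levels lay further apart, at 10.5 for Eif2ak3, 8.64 for Eif2ak1 and 7.63 CPM per kb for Eif2ak2. The share of Eif2ak4 by exon length was 13.8% to 14.3% in unstarved, 14.9% to 15.4% in Cys-starved and 12.1% to 12.9% in Thr-starved libraries. For each of these shares an exact two-sided permutation test between any pair of groups gave p = 0.1, the smallest that 3 against 3 allows, so none could reach 0.05. For the kinase sum the test gave p = 0.1 by the same exact permutation for either starvation against unstarved and p = 0.3 between the starvations.

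The sum of Ppp1r15a and Ppp1r15b rose to 66.2 ± 1.73 CPM per kb with Cys and 88.1 ± 1.83 with Thr, from 48.5 ± 1.1 in unstarved cells (SD, n = 3 each). The balance of the pair differed between the starvations. Ppp1r15a was 33.4% to 35.1% of the pair in unstarved, 44.0% to 46.5% in Cys-starved and 36.1% to 37.1% in Thr-starved libraries. On the log2 scale, the ratio of Ppp1r15a to Ppp1r15b was 0.70 higher with Cys and 0.17 higher with Thr than in unstarved cells. Each of these differences had p = 0.1 in the exact permutation test, again the smallest possible. The size of the Thr difference rests on the processing. With the GC and length offsets the log2 fold changes with Thr were 1.18 for Ppp1r15a and 0.81 for Ppp1r15b, which lie further apart than 0.97 and 0.80. Thr-starved over Cys-starved values with these offsets were 0.34 and 0.69. Impact exceeded Eif2ak4 5.19-fold per kb in unstarved, 5.72-fold in Cys-starved and 6.90-fold in Thr-starved cells, also with p = 0.1 for each pair of groups in the exact permutation test. The step between the starvations rests on the processing. With the GC and length offsets Thr-starved over Cys-starved log2 fold changes were close, at -0.186 for Impact and -0.217 for Eif2ak4. Against unstarved cells the Thr values with these offsets were -0.105 and -0.274.

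**Figure D3:**
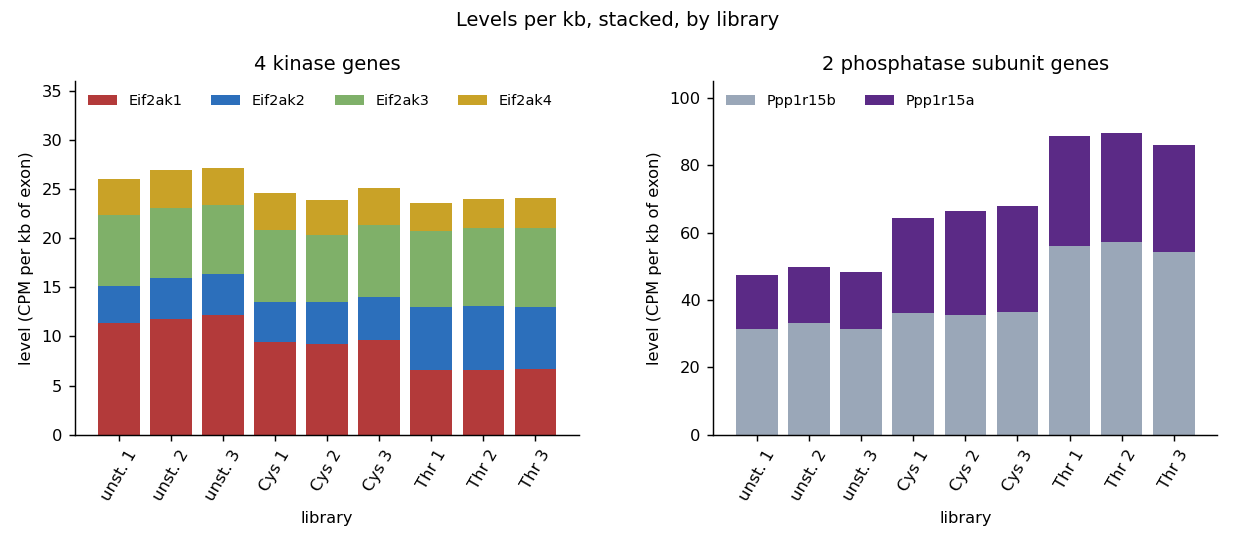
Levels per kb of exon (y axis, CPM per kb, from 0) in each of the 9 libraries (x axis), stacked for the 4 kinase genes on the left and for Ppp1r15b and Ppp1r15a on the right. The kinase sum runs from 23.5 to 27.2 and is lower in every starved than in any unstarved library. The part of Eif2ak1 shrinks and that of Eif2ak2 grows with Thr starvation. The subunit sum runs from 47.5 to 89.7, and the part of Ppp1r15a is largest in the Cys-starved libraries.

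The genes whose products act on these enzymes were described from lists. Of 17 regulators of the kinases, 7 were called higher and 5 lower with Thr starvation (median log2 fold change 0.04), and 1 higher and 9 lower with Cys starvation (median -0.12). Beside this and the lists that follow, 63.0% of all genes tested were called with Thr and 36.3% with Cys. Among genes averaging at least 5 CPM the shares were 80.6% and 55.0%. Hspa5 encodes BiP, the chaperone that binds PERK and holds it inactive. It had 744 ± 10.2 CPM in unstarved, 511 ± 11 in Cys-starved and 247 ± 2.69 in Thr-starved cells, and its log2 fold change with Thr was -1.59 (SE 0.0213, edgeR adjusted p = 7.4e-24). With Cys, Hspa5 fell by 0.54 on the log2 scale (SE 0.0207, edgeR adjusted p = 5.4e-15).

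Dele1, which carries the signal from stressed mitochondria to HRI, went from 34.6 ± 1.25 to 53.3 ± 1.54 CPM with Thr (log2 fold change 0.63, edgeR adjusted p = 1.4e-12). Without Cys it was 33.1 ± 0.406 CPM and not called. Map3k20 encodes ZAK, a kinase on stalled and collided ribosomes. It went from 15.1 ± 1.65 to 23.6 ± 1.17 CPM with Thr, the largest increase among the regulators without the GC and length offsets. Gcn1l1, which encodes the GCN2 activator GCN1, was higher with Thr (0.27, edgeR adjusted p = 9.7e-10, or 0.77 with the GC and length offsets) and gave 0.03 with Cys (edgeR adjusted p = 0.35).

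With Cys starvation the largest fall among the regulators was that of Hsp90aa1, a chaperone of HRI and other kinases, from 5010 ± 52.6 to 2970 ± 78.5 CPM. Abcf3, the counterpart of a GCN2 cofactor of yeast, was the 1 regulator called higher (0.18, edgeR adjusted p = 3.0e-04). Dnajc3, an inhibitor of PKR and PERK, was lower with Cys (-0.29, edgeR adjusted p = 2.3e-06) and at 0.08 with Thr (edgeR adjusted p = 0.0606), where it was not called. The Thr value was called higher with RLE factors, with filterByExpr, with only the groups compared and without the third unstarved library, and called lower, at -0.095, with the GC and length offsets (edgeR adjusted p = 0.03). Prkra, an activator of PKR, was called in neither starvation.

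For the substrate and its exchange factor, changes went both ways. Of 9 genes for subunits of eIF2 and eIF2B, 4 were called higher and 4 lower with Thr, and 1 higher and 4 lower with Cys. Over the alternatives, 2 to 5 were called higher and 3 to 4 lower with Thr, and 1 higher and 3 to 7 lower with Cys. With the GC and length offsets Eif2s3y, a gene for the gamma subunit of eIF2, went from 0.25 to -0.07 with Thr and lost its call. Eif2s1, which encodes eIF2alpha itself, went from 292 ± 3.97 to 275 ± 4.35 CPM with Cys and to 248 ± 4.81 with Thr, or by -0.08 and -0.23 on the log2 scale (-0.15 and -0.46 with the GC and length offsets). Eif2s2, which encodes eIF2beta, was lower with Cys and higher with Thr, from 552 ± 14.9 to 369 ± 17 CPM with Cys and to 692 ± 5.28 with Thr. Its Thr-starved level exceeded the Cys-starved one by 0.91 on the log2 scale (SE 0.0266, edgeR adjusted p = 5.3e-18). The rise with Thr, 0.33 on the log2 scale, was 0.04 and not called with the GC and length offsets. Eif2b4 was lower with Thr (-0.31, or -0.10 with those offsets), and Eif2b1 was the gene called higher with Cys (0.16).

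All 3 genes for the catalytic subunits of PP1, the enzyme that GADD34 and CReP bring to eIF2alpha, were called higher with Thr starvation. With Cys starvation 0 were called by edgeR in the fit of all 9 libraries and 0 by DESeq2, and 1, Ppp1cc, had an unadjusted edgeR p under 0.05. Ppp1cc was called higher with Cys when genes needed 10 counts in every library, when only the groups compared were fitted and when counts were halved. Ppp1cc went from 364 ± 4.03 to 511 ± 4.93 CPM with Thr and was at 376 ± 3.65 with Cys. On the log2 scale Ppp1cb rose by 0.33 and Ppp1ca by 0.18 with Thr. With the GC and length offsets Ppp1cb was at 0.06 and not called, and Ppp1ca at 0.33.

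**Figure D4:**
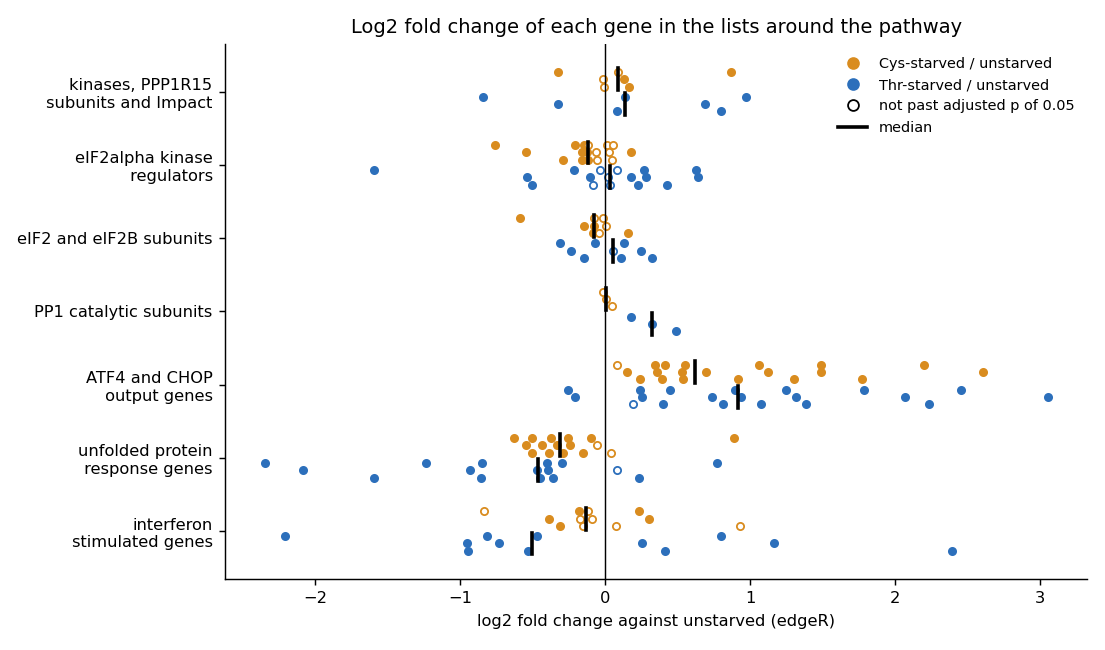
Log2 fold change against unstarved cells (x axis) of every gene in the lists named on the y axis, for Cys-starved and Thr-starved cells; open points were not called by edgeR and black lines are medians. The ATF4 and CHOP output genes have medians of 0.62 and 0.92 and the unfolded protein response genes of -0.31 and -0.46, while the 7 kinase, phosphatase subunit and Impact genes spread to both sides of 0.

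Downstream of the mark, 17 of 20 output genes of ATF4 and CHOP were called higher and 2 lower with Thr (median log2 fold change 0.92), and 19 higher and 0 lower with Cys (median 0.62). Ppp1r15a, itself known as a target of CHOP and ATF4, lay near these medians with 0.97 and 0.87. The largest increase of the list was that of Atf3, a transcription factor, with 3.06 for Thr and 2.61 for Cys. The genes called lower with Thr were Phgdh, an enzyme of serine synthesis (-0.26), and Slc7a11, a cystine transporter (-0.21). With the GC and length offsets Phgdh was at -0.05 and not called, and Slc7a11 at -0.51. Atf4 went from 354 ± 5.21 to 454 ± 7.41 CPM with Cys and 589 ± 8.07 with Thr. Ddit3, which encodes CHOP, went from 15.5 ± 1.0 to 18.4 ± 0.241 and 85.1 ± 2.24 CPM. Between the starvations Ddit3 differed by 2.21 and Ppp1r15a by 0.10 on the log2 scale (2.11 and 0.34 with the GC and length offsets). Whether CHOP or ATF4 acted on Ppp1r15a in these cells was not tested.

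Genes of the unfolded protein response, the process that PERK belongs to, went mostly down. Of 16 such genes, 2 were called higher and 13 lower with Thr (median -0.46), and 1 higher and 13 lower with Cys (median -0.31). Manf, a secreted factor of the endoplasmic reticulum, went from 107 ± 1.94 to 21 ± 0.605 CPM with Thr. Herpud1, a component of the degradation machinery of that compartment, was higher in both starvations (0.77 with Thr and 0.89 with Cys). Eif2ak3, at 0.14 with Thr, is not itself on this list.

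The genes most alike in pattern were found by Pearson's r of log2(CPM + 0.5) over the 9 libraries, among 11408 genes. The points share 3 groups of libraries, so any pair of genes that differ between the groups in the same order is highly correlated. For Ppp1r15a these were Ehd4 (r = 0.9962) and Ndc80 (0.9948), and 192 genes had r over 0.95. For Ppp1r15b they were Prex2 (0.9989) and Klf5 (0.9985), with 1664 genes over 0.95. Klf5, a transcription factor of ES cells, went from 217 through 257 to 464 CPM in unstarved, Cys-starved and Thr-starved cells, much as Ppp1r15b did.

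Among the kinases, Eif2ak1 was most like Plcb3 (0.9981) and Glns-ps1 (0.9978), and Eif2ak2 most like Srp72 (0.9977) and Ubn1 (0.9959). Eif2ak4 was most like Khnyn (0.9924) and Gm49037 (0.992). The patterns of Eif2ak3 and Impact were shared by few genes, with 6 and 13 over 0.95. Their nearest were Ttc5 (0.9672) and Lrch3 (0.9626) for Eif2ak3, and Nprl3 (0.9806) and Hs1bp3 (0.9766) for Impact.

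By the GENCODE M21 annotation of GRCm38, the genes lie on 7 different chromosomes and are all protein coding. Eif2ak4 is on chromosome 2 (118388618 to 118475234, plus strand) with 41 exon blocks, and Eif2ak1 on chromosome 5 (143817788 to 143904251, plus strand) with 15. Eif2ak3 is on chromosome 6 (70844515 to 70905245, plus strand) with 19, and Eif2ak2 on chromosome 17 (78852564 to 78882573, minus strand) with 16. Both phosphatase subunit genes have 2 exon blocks, Ppp1r15a on chromosome 7 (45522916 to 45526268, minus strand) and Ppp1r15b on chromosome 1 (133131143 to 133139783, plus strand). BLAST was used to search transcripts of other genes for stretches of at least 43 bases, the read length, at 90% identity or more. None was reported for the longest transcripts of Eif2ak4, Ppp1r15a and Impact. For Eif2ak2 such matches, of up to 213 bases and to 77 genes, covered 20.2% of the transcript. For Eif2ak1, Ppp1r15b and Eif2ak3, whose antisense neighbours count among the matches, they covered 17.5%, 13.1% and 10.8%. The score limit of the search could drop short matches that hold mismatches. More matches may therefore exist for all 7 genes, and the shares covered are lower bounds. How reads from such stretches were assigned was not tested.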

How the data were processed

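RNA was measured in 9 libraries of poly(A) mRNA from E14 cells after 3 h, with 3 replicates per group, read from both ends on 1 run. The authors aligned reads with STAR 2.7.4a to GRCm38, used HTSeq to obtain counts for each gene, and deposited those counts raw. The deposited signal values of the other table are the same counts divided by 1 size factor per library from DESeq2; they gave an alternative scaling only. Of counts from 1 to 20, 67.8% were even, so both ends of a fragment were probably counted. Halved counts were an alternative. With counts halved, libraries of a group differed near sampling noise in genes of low count (chi-square per gene 0.99 to 1.065, where sampling noise gives 1). For the counts as deposited, which were the ones fitted, it was 1.98 to 2.13. Genes of high count differed by more on either scale, and no library was a copy of another.

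Counts were tested in R 4.3.3 with edgeR 4.0.16 (TMM, quasi-likelihood F test, all 9 libraries in 1 fit, the 20143 genes with at least 1 count, Benjamini-Hochberg adjustment per comparison, called at 0.05). The authors' methods state DESeq2 with the same minimum and threshold, which was run as an alternative (DESeq2 1.42.0). The fits were also run on simulated data in which few genes changed, and only in the Thr-starved group. That run does not cover data such as these, in which most genes were called with Thr. The comparisons share libraries, so their values are not independent. Gene IDs were named from GENCODE M21 (20171 of 20189). Levels per kb use the summed exon length. Sequences are from RefSeq (GRCm38.p6), and transcripts were compared with BLAST. Protein sequences were not used here.

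The 7 genes and all lists were chosen with earlier results of these data known. Each of the 7 is named, with the 2 genes most alike in pattern, and from each list the largest increase and decrease among called genes with Thr. With Cys this was not done in full for the interferon and unfolded protein response lists. Of genes acting directly on a kinase, Gcn1l1, Hspa5, Dnajc3, Prkra and Dele1 are named, and not all others are. Bst2, Eif2s1, Eif2s3y, Slc7a11, Atf4 and Ddit3 were chosen after their values were seen. Alternatives were DESeq2, RLE factors, deposited size factors, filterByExpr, a minimum of 10 counts, only the groups compared, a replicate block, halved counts, GC and length offsets, and each library left out. Arg and Leu starvation was not analysed here, and 1 gene of the interferon list is not reported by name.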

Additional observations from a re-analysis of the deposited data

Results flagged for a closer look

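For 6 of the 7 genes the effect of Thr starvation differed from that of Cys starvation by a direct edgeR test of Thr-starved against Cys-starved libraries, which is the same as testing the difference of both effects. The log2 difference was largest for Ppp1r15b (0.633, adjusted p = 1.9e-15) and Eif2ak2 (0.601, adjusted p = 1.1e-10), both higher with Thr in 3 of 3 libraries against 3 of 3. Eif2ak1 (-0.516, adjusted p = 1.4e-11) and Eif2ak4 (-0.315, adjusted p = 3.8e-06) were lower with Thr. Smaller differences were found for Eif2ak3 (0.146, adjusted p = 0.00167), where the Cys effect was near 0, and Ppp1r15a (0.098, adjusted p = 0.0184), which was not called without 1 Cys-starved library. Of all genes, 62.0% were called in the same comparison. Groups of 3 were not searched for outlying libraries.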

How the results depend on the processing

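The log2 fold changes of the 7 genes in 3 comparisons gave 378 values under 18 alternatives, of which 374 kept their side of the threshold and direction, counting as kept 5 uncalled Cys values near 0 whose sign turned (Eif2ak3 up to 0.028, Eif2ak4 up to 0.018). The exceptions were Impact with Thr starvation (-0.105 with GC and length offsets, 0.068 without the third Thr-starved library), Impact between the starvations (-0.186 with the offsets) and Ppp1r15a between the starvations (0.055 without the first Cys-starved library); the cause was not tested. Without 1 library at a time, 6 to 7 of the genes were called with Thr, 4 with Cys and 5 to 6 between them. Same-numbered libraries did not deviate together (mean correlation 0.015 for Thr and -0.062 for Cys against unstarved, and -0.141 between them), and 2 of 6, 0 of 6 and 0 of 6 libraries correlated best with their own number. With the replicate number as a block, 12488 genes were called with Thr, 7063 with Cys and 12334 between them, where the fits without it called 12689, 7313 and 12488, and 7, 4 and 6 of the 7 genes were called as before.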
